A study of Mus musculus with 6 samples.

Results

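Skeletal muscle contractile genes were followed in RNA-Seq of subcutaneous inguinal white adipose tissue (iWAT), the fat pad of the groin, from Hlx transgenic mice and wild-type littermates. A list of 38 genes was used, grouped by textbook fibre type: isoforms of fast fibres, isoforms of slow fibres, and genes that both fibre types share. A row of the expression table was taken where its symbol equalled a listed symbol, and the row with the highest mean was used for Casq1, which had several. Of the 38 genes, 37 had a row among the 19445 loci of the table: 13 fast, 7 slow and 17 shared. Tnnt3, the fast troponin T, had no row of its own. Its locus was merged with Lsp1, a leukocyte gene, and the merged values cannot be split, so Tnnt3 is not reported.

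The transgenic mice carried Hlx cDNA behind the 5.4-kb promoter of aP2 (Fabp4), which drives expression in brown and white fat. Founders came from hybrid embryos of C57BL/6 and SJL mice, and the line was backcrossed to C57BL/6. All 6 mice were 12 weeks old and labelled male, with 3 transgenic and 3 wild-type mice and 1 library per mouse. The study asked whether Hlx turns iWAT towards a brown fat pattern of expression, and the comparison here asks what the muscle genes in the same libraries did.

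Values are FPKM (a read density per length of transcript, scaled to the mapped reads of the library), so levels can be set side by side between genes. Total FPKM per library was 466059 to 542096, and the absolute read depth is unknown. Hlx, the homeobox gene of the transgene, was 79.6 to 109.7 FPKM in the transgenic libraries, against 6.88 to 8.14 FPKM in those of controls. Xist, the RNA of the inactive X chromosome, was at 20.2 to 33.6 FPKM in all 6 libraries, and all 28 Y chromosome loci were at 0 in all 6, which goes against the label male. The labels gave no batch. Wild-type 1 and transgenic 2 stood apart from the other libraries for most of the muscle genes, as described below, so the counts are also given without transgenic 2.

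Striated muscle contracts when myosin heavy chains pull on actin, and troponin C, the calcium sensor of the thin filament, starts the pull together with troponin I and troponin T. Fast and slow fibres use different genes for the heavy chains, the light chains and the troponins, so these isoforms mark the fibre type. Adipocytes do not contract, but classical brown adipocytes arise from a lineage close to that of skeletal muscle. The study separates these from the brown-like adipocytes of iWAT, and lineage was not tested here.

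The promoters of 4 members on which the results turn are shown first, because the genes behaved in different ways in the same libraries. Ckm and Acta1 had the largest log2 fold changes of the shared genes but did not pass the test, and Myl1 and Myl3 were the genes that passed the test. Each stretch lies within the 250 bases before the RefSeq start (build GRCm38.p6), was trimmed to the part that no annotated transcript uses as untranslated region, and is written 5′ to 3′ on the strand of the gene. Capitals mark the E-box CANNTG, the motif bound by myogenic factors such as MyoD, and the TATA box TATAAA on either strand. The stretches are Ckm at chr7:19410844-19411024 (plus strand), Acta1 at chr8:123894776-123895025 (minus strand), Myl1 at chr1:66945144-66945290 (minus strand) and Myl3 at chr9:110763428-110763645 (plus strand).
Ckm: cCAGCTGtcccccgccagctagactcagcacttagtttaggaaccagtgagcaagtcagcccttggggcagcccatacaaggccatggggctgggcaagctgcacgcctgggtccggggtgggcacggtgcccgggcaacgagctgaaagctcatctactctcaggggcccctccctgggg
Acta1: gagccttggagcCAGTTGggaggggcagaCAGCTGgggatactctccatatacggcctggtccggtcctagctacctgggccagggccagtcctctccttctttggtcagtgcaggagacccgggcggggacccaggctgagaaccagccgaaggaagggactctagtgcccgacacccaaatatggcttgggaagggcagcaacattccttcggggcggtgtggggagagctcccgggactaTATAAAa
Myl1: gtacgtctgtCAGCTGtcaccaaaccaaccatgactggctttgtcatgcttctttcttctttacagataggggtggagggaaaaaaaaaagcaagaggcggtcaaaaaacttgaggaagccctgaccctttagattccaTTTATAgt
Myl3: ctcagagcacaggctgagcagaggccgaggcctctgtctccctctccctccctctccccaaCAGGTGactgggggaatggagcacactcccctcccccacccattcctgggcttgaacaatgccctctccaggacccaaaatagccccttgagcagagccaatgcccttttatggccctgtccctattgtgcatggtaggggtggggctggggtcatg

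Counted back from the start, the E-box began at base -249 of Ckm, at -238 and -221 of Acta1, at -224 of Myl1 and at -189 of Myl3. TATAAA began at -7 of Acta1 and, on the opposite strand, at -95 of Myl1. Across the 250 bases before the start, 31 of 37 promoters of the 30 matched genes held CANNTG (83.8%), against 66.2% of all 32851 promoters. The core motif of MEF2, TAAAAATA, was in 4 of the 37 (10.8%) against 2.45% of all, and TATAAA was in 6 (16.2%) against 12.4%. Both strands were searched, and the 3 motifs were counted separately whether or not they overlapped. A match in these letters is a description of the window and does not show a bound site.

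Muscle genes were low in iWAT and differed widely between mice of the same genotype. Summed over the 37 genes, the level was 259, 1250 and 333 FPKM in transgenic 1, 2 and 3 and 105, 328 and 157 FPKM in wild-type 1, 2 and 3. Transgenic 2 alone stood far above the rest, and wild-type 2 lay between transgenic 1 and transgenic 3. The transgenic mean was 614 ± 552 FPKM (SD, n = 3), against a wild-type mean of 197 ± 116 FPKM (SD, n = 3), and without transgenic 2 the transgenic mean was 296 FPKM. Even in transgenic 2 the muscle genes were 0.243% of all FPKM, and in wild-type 1 they were 0.0202%. In bulk tissue, fewer cells of a type and less RNA per cell cannot be told apart.

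**Figure D1:**
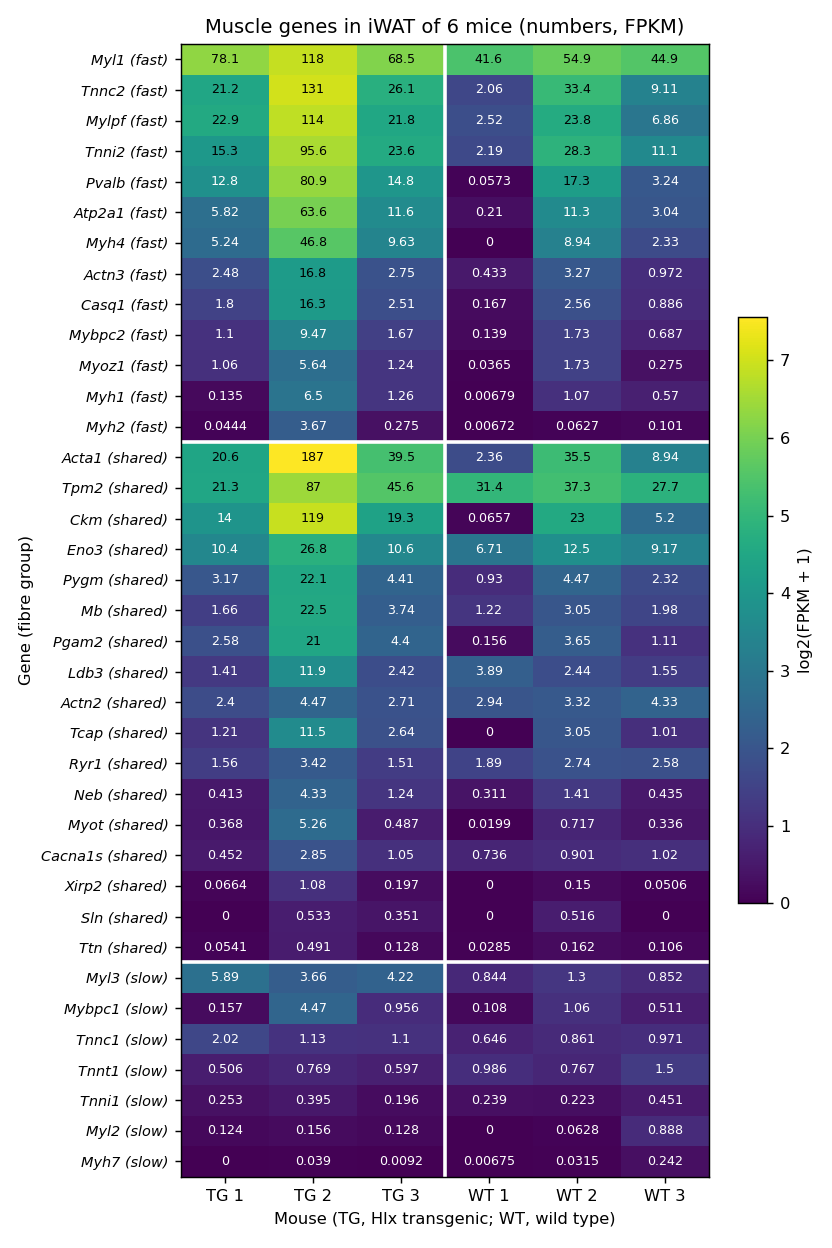
FPKM of the 37 muscle genes (rows, grouped as fast, shared and slow) in the 6 mice (columns), coloured by log2(FPKM + 1), with the FPKM printed in each cell. Transgenic replicate 2 holds the highest value of 31 genes and wild-type replicate 1 the lowest of 29.

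Of the 37 genes, 31 were highest in transgenic 2 and 29 were lowest in wild-type 1, where 5 were at 0. The 2 extremes fell together in 26 genes, namely all 13 fast isoforms, 12 of 17 shared genes and 1 of 7 slow isoforms, which was Mybpc1. The slow isoforms had no single order: 4 of 7 were highest in wild-type 3, 2 in transgenic 1 and 1 in transgenic 2, while 4 of 7 were lowest in wild-type 1 as the fast isoforms were. Of the 7, 3 stayed too low to be tested. In 26 genes the highest library was over 10 times the lowest, or the lowest was at 0.

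Genotypes were compared with limma on log2(FPKM + 1) over the 11692 loci with a mean over 1 FPKM in at least 1 genotype. Of the 37 genes, 31 passed this filter, 20 of them in both genotypes, 10 through the transgenic mean only and 1 (Tnnt1) through the wild-type mean only. Those 10 (Myh1, Myh2, Myl3, Tnnc1, Neb, Mybpc1, Mybpc2, Myoz1, Myot and Cacna1s) passed because they were higher in transgenic iWAT, so their direction is fixed by the filter. The slow isoforms Myh7, Myl2 and Tnni1 and the shared genes Sln, Ttn and Xirp2 were too low to be tested.

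Myl3 and Myl1 rose, and these 2 of 31 (6.45%) were the tested members with a limma adjusted p under 0.05. No member was called lower. At an unadjusted limma p under 0.05 the count was 4, with Mylpf and Pvalb joining Myl3 and Myl1. The share of all tested loci at that unadjusted threshold was not counted, so this count has no background. At the adjusted threshold, 11.6% of all tested loci were called higher and 18.6% in either direction, so the muscle genes were not called more often than other loci. In 3 of the 31 (9.68%), Myl1, Myl3 and Tnnc1, the genotypes did not overlap, against 42.9% of all tested loci. The transgenic mice were higher in each, but for Myl3 and Tnnc1 the filter had set that direction. The mean log2 level was higher in transgenic iWAT in 28 of the 31 and lower in 3, Tnnt1, Actn2 and Ryr1, a count in which the direction of 10 of the 28 and of Tnnt1 was set by the filter. The median log2 fold change was 1.16 over the 31, against -0.01 over all tested loci, and 0.85 over the 37 members with no filter on low values. The median standard error was 0.62 on the log2 scale, against 0.11 over all tested loci. The 29 members that were not called had limma adjusted p-values from 0.115 to 0.681, which does not show that they were equal in the genotypes.

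**Figure D2:**
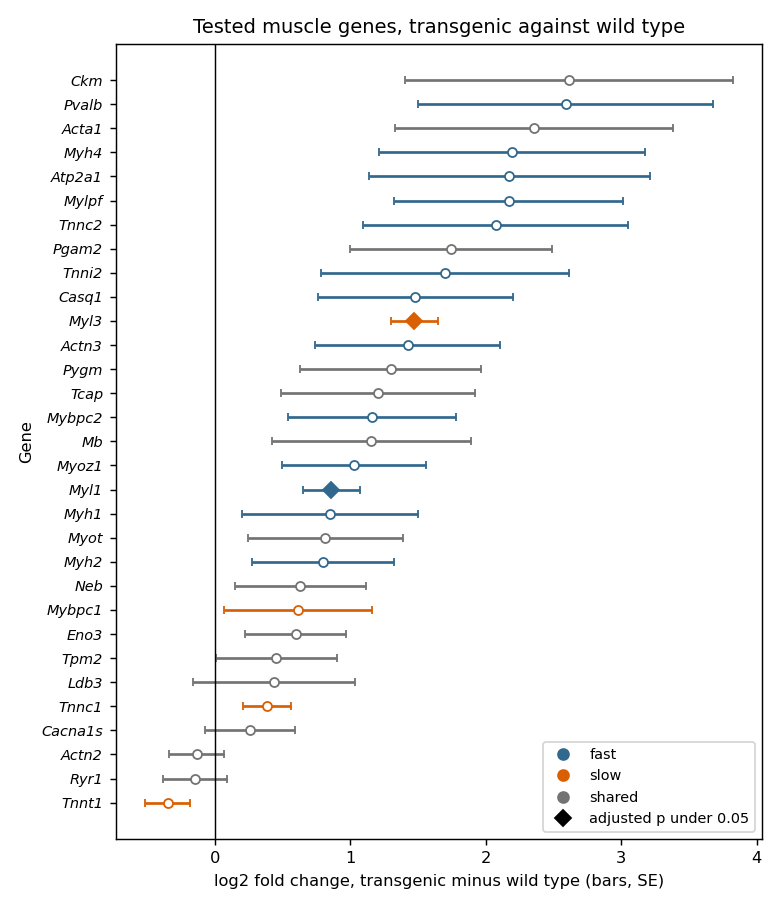
Log2 fold change (transgenic minus wild type, on the log2(FPKM + 1) scale) of the 31 tested muscle genes, with bars of 1 standard error, coloured by fibre group. Filled diamonds mark Myl3 and Myl1, whose standard errors of 0.17 and 0.21 are well below the 1.21 of Ckm at the top of the plot.

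The myosin heavy chains are the motors of the thick filament. Myh4, the heavy chain of the fastest IIB fibres, was 5.24, 46.8 and 9.63 FPKM in the transgenic mice, against 0, 8.94 and 2.33 FPKM in the wild-type mice. It was highest in transgenic 2, was listed at 0 in wild-type 1, and overlapped between the genotypes, since wild-type 2 lay above transgenic 1. The log2 fold change was 2.19 ± 0.98 (SE; limma adjusted p = 0.156). Myh1, of IIX fibres, was 0.135, 6.50 and 1.26 FPKM against 0.00679, 1.07 and 0.570 FPKM, with a limma adjusted p of 0.378. Myh2, of IIA fibres, was 0.0444, 3.67 and 0.275 FPKM against 0.00672, 0.0627 and 0.101 FPKM, with a limma adjusted p of 0.311. Only transgenic 2 was above 1 FPKM for Myh2. Myh7, the slow heavy chain that the heart also uses, was 0, 0.0390 and 0.00920 FPKM against 0.00675, 0.0315 and 0.242 FPKM, and none of the 6 libraries reached 1 FPKM.

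In the 5 libraries with appreciable heavy chain RNA, the composition was that of fast muscle. Myh4 made up 96.7%, 82.1% and 86.2% of the summed FPKM of the 4 heavy chains in transgenic 1, 2 and 3, and 88.5% and 71.8% in wild-type 2 and 3. Wild-type 1 had 0.0203 FPKM in all over the 4 genes, too little for a share to be read. Myh7 was 0.0823% or less in the transgenic mice, 0.312% in wild-type 2 and 7.47% in wild-type 3, where its level was 0.242 FPKM. Summed over the 4, heavy chain RNA was 5.42, 57.0 and 11.2 FPKM in transgenic iWAT against 0.0203, 10.1 and 3.24 FPKM in wild-type iWAT, so again wild-type 2 exceeded transgenic 1.

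**Figure D3:**
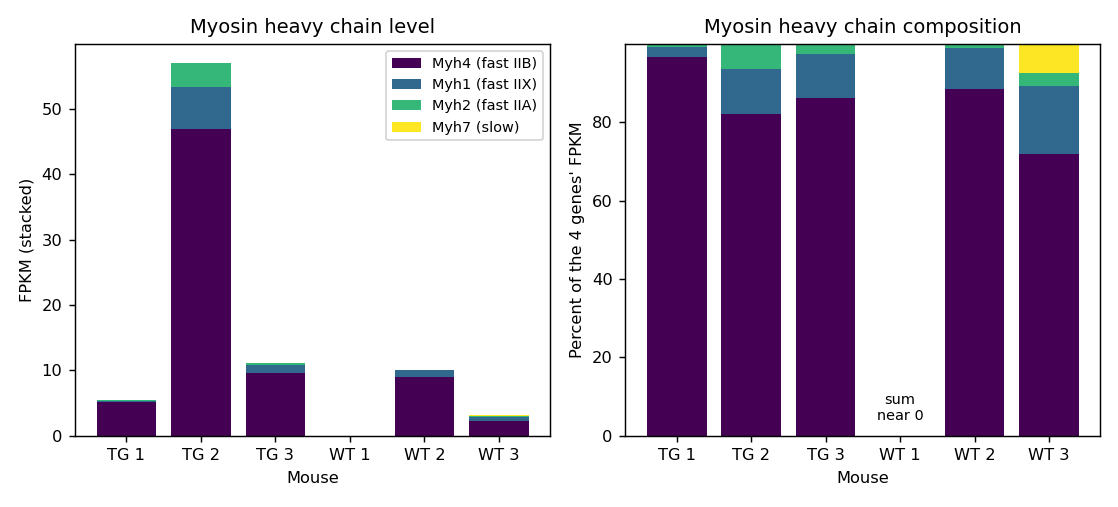
Myosin heavy chain FPKM per mouse, stacked by gene (left), and the share of each gene in the sum of the 4 (right, percent; wild-type replicate 1 has no bar because its sum is 0.0203 FPKM). Myh4 is the largest share in each of the 5 bars, from 71.8% to 96.7%.

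The light chains sit on the neck of the heavy chain, and they gave both members that passed the test. Myl3, the essential light chain of slow fibres and of heart ventricle, was 5.89, 3.66 and 4.22 FPKM in the transgenic mice, against 0.844, 1.30 and 0.852 FPKM in the wild-type mice. All 3 transgenic mice lay above all 3 wild-type mice, and transgenic 2, the highest library for the fast genes, was the lowest transgenic mouse here. The means were 4.59 ± 1.16 FPKM (SD, n = 3) and 0.997 ± 0.259 FPKM (SD, n = 3), a ratio of 4.60. The log2 fold change was 1.47 ± 0.17 (SE; limma adjusted p = 0.00247), and without transgenic 2 it was 1.59 (limma adjusted p = 0.00472). The exact permutation test over the 20 arrangements of the mice gave a two-sided p of 0.1 for Myl3, the smallest that 3 against 3 mice allow. With no filter on low values, through which Myl3 had passed by its transgenic mean, it was still called (limma adjusted p = 0.00708). The locus (mm10, chromosome 9, 110763681 to 110787389, plus strand) overlapped no other protein-coding gene.

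Myl1, the essential light chain of fast fibres, was 78.1, 118 and 68.5 FPKM in transgenic iWAT, against 41.6, 54.9 and 44.9 FPKM in wild-type iWAT. The genotypes did not overlap, and no library was near 0, although wild-type 1 was at or near 0 for some other fast genes. The means were 88.2 ± 26.3 FPKM (SD, n = 3) and 47.1 ± 6.91 FPKM (SD, n = 3), a ratio of 1.87. The log2 fold change was 0.86 ± 0.21 (SE; limma adjusted p = 0.0313), with an exact permutation two-sided p of 0.1, and without transgenic 2 it was 0.63 (limma adjusted p = 0.0322). The call was lost without transgenic 1 (limma adjusted p = 0.0601), without wild-type 1 (0.0852), without wild-type 3 (0.0973) and with no filter on low values (0.0563). The locus (mm10, chromosome 1, 66924294 to 66945436, minus strand) overlapped no other protein-coding gene. It reaches past the RefSeq start whose promoter is printed above, so its FPKM is not that of this start alone.

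Mylpf, the regulatory light chain of fast fibres, was 22.9, 114 and 21.8 FPKM against 2.52, 23.8 and 6.86 FPKM. It is bound to the same heavy chain as Myl1 but was spread 45.1-fold between the highest and lowest library, against 2.84-fold for Myl1. The log2 fold change of Mylpf was 2.17 ± 0.85 (SE; limma adjusted p = 0.115), and reads of the overlapping Sept1 cannot be told apart from it in these unstranded libraries. The ratio of Myl1 to Mylpf was 3.41, 1.04 and 3.15 in transgenic iWAT, as against 16.5, 2.30 and 6.55 in the controls, lowest where Mylpf was highest. Myl2, the regulatory light chain of slow fibres and heart, was 0.124, 0.156 and 0.128 FPKM against 0, 0.0628 and 0.888 FPKM and was not tested.

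**Figure D4:**
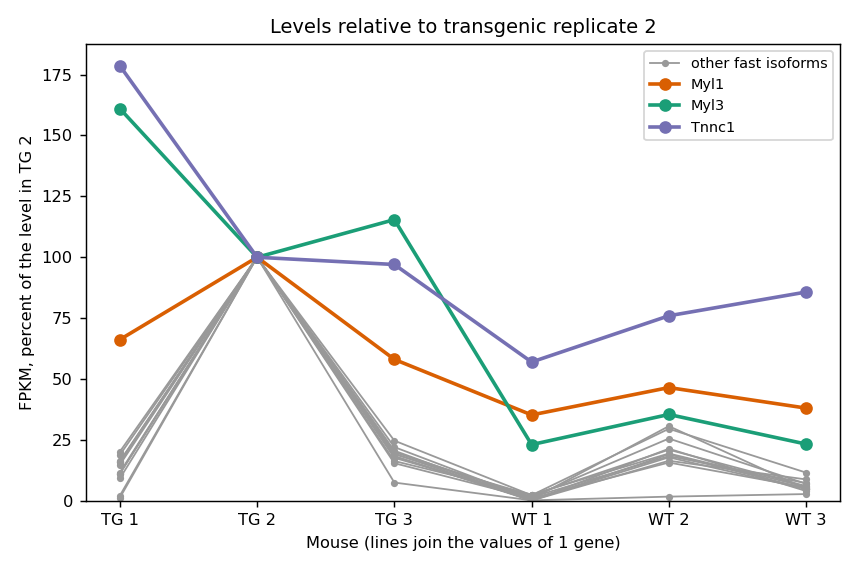
FPKM of each fast isoform (grey), with Myl1, Myl3 and Tnnc1 coloured, as a percent of the value in transgenic replicate 2, by mouse. The median over the 13 fast isoforms is 14.8% in transgenic 1, 19.1% in transgenic 3 and 1.03%, 19.4% and 5.77% in wild-type 1, 2 and 3, while the coloured genes lie higher.

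The troponins set off contraction when calcium rises. Tnnc2, the fast calcium sensor, was 21.2, 131 and 26.1 FPKM in transgenic iWAT, against 2.06, 33.4 and 9.11 FPKM in wild-type iWAT. Tnni2, the fast inhibitory subunit, was 15.3, 95.6 and 23.6 FPKM against 2.19, 28.3 and 11.1 FPKM. In both genes wild-type 2 lay above transgenic 1 and transgenic 3, and neither passed the test, with log2 fold changes of 2.07 ± 0.98 (SE; limma adjusted p = 0.173) for Tnnc2 and 1.70 ± 0.91 (SE; limma adjusted p = 0.224) for Tnni2. Tnnc2 overlaps Ube2c, a gene of dividing cells.

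Tnnc1, the calcium sensor of slow fibres and heart, was 2.02, 1.13 and 1.10 FPKM in the transgenic mice, against 0.646, 0.861 and 0.971 FPKM in the wild-type mice. The genotypes did not overlap, but the log2 fold change of 0.39 ± 0.18 (SE) did not pass the test (limma adjusted p = 0.163), and the gene overlaps Nisch. Tnni1, the slow inhibitory subunit, was 0.253, 0.395 and 0.196 FPKM against 0.239, 0.223 and 0.451 FPKM. Tnnt1, the slow troponin T, was 0.506, 0.769 and 0.597 FPKM against 0.986, 0.767 and 1.50 FPKM, with the lower mean in transgenic iWAT and a log2 fold change of -0.35 ± 0.17 (SE; limma adjusted p = 0.179).

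Within each library the fast isoform exceeded its slow partner in troponin C, troponin I and both kinds of light chain. Tnnc1 was 8.70%, 0.859% and 4.04% of the summed troponin C in transgenic 1, 2 and 3 and 23.8%, 2.51% and 9.64% in wild-type 1, 2 and 3. Tnni1 was 1.63%, 0.412% and 0.822% of troponin I against 9.87%, 0.784% and 3.92%. For troponin C and I together, the slow share was highest in wild-type 1 (17.2%), where the fast genes were lowest, and lowest in transgenic 2 (0.671%), where they were highest. Its mean was 3.02% in transgenic iWAT (1.60% without transgenic 1) and 8.52% in wild-type iWAT (4.16% without wild-type 1), so the means rest on single mice. The essential light chains ran the other way: Myl3 was 7.01%, 3.01% and 5.80% of Myl3 plus Myl1 in transgenic iWAT, as against 1.99%, 2.31% and 1.86% in the controls, without overlap.

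**Figure D5:**
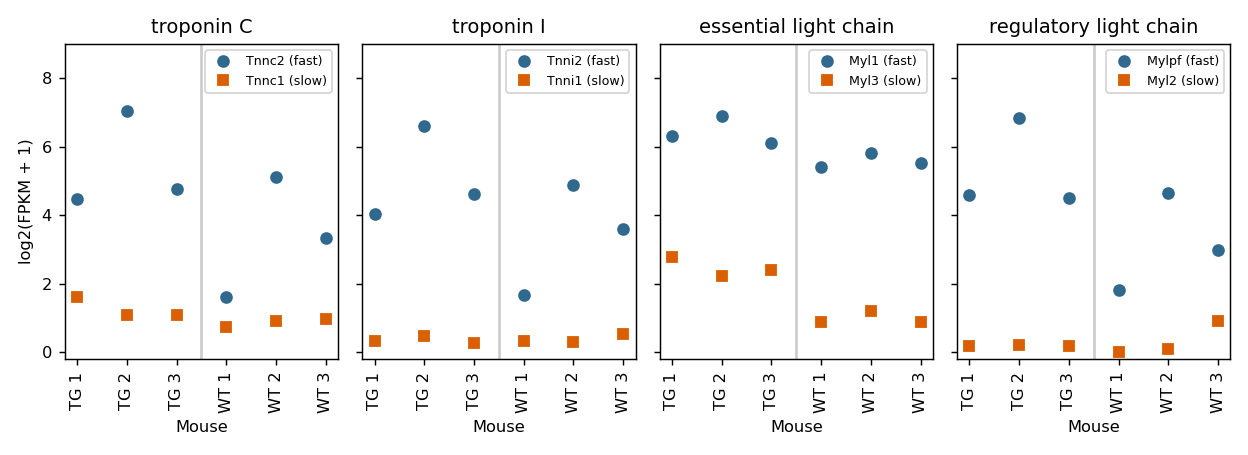
Fast (circles) and slow (squares) isoforms of troponin C, troponin I, the essential and the regulatory light chain, as log2(FPKM + 1) in each mouse. The fast isoform lies above the slow one in every panel and mouse, and Myl3 is the slow isoform whose 3 transgenic mice (3.66 to 5.89 FPKM) stand clear of the wild-type mice (0.844 to 1.30 FPKM).

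Among the genes that both fibre types share, none of the 14 tested passed the test. Acta1, the actin of the skeletal muscle thin filament, was the highest member of any group in transgenic 2, at 20.6, 187 and 39.5 FPKM in transgenic iWAT against 2.36, 35.5 and 8.94 FPKM in wild-type iWAT. Wild-type 2 again lay between transgenic 1 and transgenic 3, and the log2 fold change was 2.36 ± 1.03 (SE; limma adjusted p = 0.147). The annotation places the gene model Gm20388 over Acta1. Ckm, the creatine kinase that buffers ATP in muscle, was 14.0, 119 and 19.3 FPKM against 0.0657, 23.0 and 5.20 FPKM, a spread of 1813-fold between the highest and the lowest library. Its log2 fold change of 2.62 ± 1.21 (SE) was the largest among the tested members and did not pass the test (limma adjusted p = 0.167).

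Some shared genes varied less between mice than Acta1 and Ckm. Tpm2, the beta tropomyosin that smooth muscle also makes, was 21.3 to 87.0 FPKM in transgenic iWAT, against 27.7 to 37.3 FPKM in wild-type iWAT. Eno3, the muscle enolase of glycolysis, was 10.4 to 26.8 FPKM against 6.71 to 12.5 FPKM. Actn2, which crosslinks actin in the Z disc, and Ryr1, the calcium release channel, spread 1.86-fold and 2.26-fold over the 6 mice, and Ryr1 overlaps Map4k1. Ldb3, a Z disc protein, was 1.41 to 11.9 FPKM against 1.55 to 3.89 FPKM, and Cacna1s, the voltage sensor of the T tubule, was 0.452 to 2.85 FPKM against 0.736 to 1.02 FPKM. Both were highest in transgenic 2 but lowest in transgenic 1. Without transgenic 2, the log2 fold change turned from 0.45 to -0.03 for Tpm2 and from 0.44 to -0.29 for Ldb3, neither past the threshold.

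The remaining shared genes had their highest level in transgenic 2. The giant proteins of the sarcomere, Neb (0.413 to 4.33 FPKM against 0.311 to 1.41 FPKM) and Ttn (0.0541 to 0.491 FPKM against 0.0285 to 0.162 FPKM), were low throughout. Sln, the peptide that inhibits the calcium pump, was listed at 0, 0.533 and 0.351 FPKM against 0, 0.516 and 0 FPKM. The enzymes Pygm, which breaks down glycogen, and Pgam2, the muscle phosphoglycerate mutase, reached 22.1 and 21.0 FPKM in transgenic 2 and were 4.47 FPKM or less in the other libraries. Mb, the oxygen store myoglobin, was 1.66, 22.5 and 3.74 FPKM against 1.22, 3.05 and 1.98 FPKM, and Tcap, Myot and Xirp2 of the Z disc and its attachments likewise peaked in transgenic 2, at 11.5, 5.26 and 1.08 FPKM. Pgam2 overlaps Dbnl, and Mb overlaps Apol6.

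Calcium handling genes of fast fibres followed the same mice. Atp2a1, the fast calcium pump SERCA1, was 5.82, 63.6 and 11.6 FPKM in transgenic iWAT, against 0.210, 11.3 and 3.04 FPKM in wild-type iWAT, with a log2 fold change of 2.18 ± 1.03 (SE; limma adjusted p = 0.176). It overlaps Rabep2. Pvalb, the calcium buffer of fast fibres, was 12.8, 80.9 and 14.8 FPKM against 0.0573, 17.3 and 3.24 FPKM, with a log2 fold change of 2.59 ± 1.09 (SE; limma adjusted p = 0.137). Casq1, the calcium store of the sarcoplasmic reticulum, reached 16.3 FPKM in transgenic 2, while wild-type 1 had 0.167 FPKM. The fast Z disc genes Actn3 and Myoz1 and the fast myosin-binding protein Mybpc2 had log2 fold changes of 1.42, 1.03 and 1.16, none past the threshold. Mybpc1, grouped here as the slow partner of Mybpc2, was the 1 gene of the slow group with the fast order. It was 0.157, 4.47 and 0.956 FPKM against 0.108, 1.06 and 0.511 FPKM, so its values did not set it apart from the fast group.

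Ratios between some of these genes varied less across mice than their levels did. Pvalb was 0.912, 0.679 and 0.769 of Ckm in transgenic 1, 2 and 3 and 0.872, 0.751 and 0.623 of it in wild-type 1, 2 and 3. Tnnc2 was 1.39, 1.37 and 1.10 times Tnni2 in transgenic iWAT, as against 0.944, 1.18 and 0.823 times it in the controls. Ckm was 0.489 to 0.680 of Acta1 in 5 libraries and 0.0278 of it in wild-type 1. Over the 13 fast isoforms, 12 were higher in wild-type 2 than in transgenic 1 and 8 were higher in wild-type 2 than in transgenic 3, and wild-type 2 exceeded transgenic 1 in 32 of the 37 genes.

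By fibre group, the log2 fold change was 0.80 to 2.59 over the 13 tested fast isoforms (1 called), -0.35 to 1.47 over the 4 tested slow isoforms (1 called) and -0.15 to 2.62 over the 14 tested shared genes (0 called). All 4 slow isoforms, 4 of the fast isoforms and 3 of the shared genes had passed the filter through 1 genotype only, which set their direction, so the groups are not compared. Without transgenic 2, 25 members were tested, of which 2 were called higher and 0 lower, against 11.1% of all loci called higher, and the median log2 fold change was 0.63. Myl3 and Myl1 were again the members called. Without wild-type 1, Myl3 was the 1 member called.

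Genes outside the list give the context for these values. Of 56 further skeletal muscle genes, 53 had a row and 22 were tested. Of these 22, 9 passed the test as higher in transgenic iWAT, against 11.6% of all tested loci, and 0 as lower. Fabp3 and Myom1, of those called, passed the filter on low values through the transgenic mean only, which set their direction. Several tested genes that were not called passed it in the same way. Fabp3, a fatty acid binding protein of muscle, heart and brown fat, was 15.7 ± 6.49 FPKM (SD, n = 3) against 0.956 ± 0.315 FPKM (SD, n = 3), with a log2 fold change of 3.03 (limma adjusted p = 0.00119). Like Myl3, it was not highest in transgenic 2, where it was 9.15 FPKM against 22.1 and 15.8 FPKM in transgenic 1 and 3. The M band protein Myom1 (log2 fold change 0.96), the sarcoplasmic reticulum protein Srl (1.20), the tropomyosin Tpm1 (0.95), the calcium pump Atp2a2 (0.35) and the glucose enzymes Pfkm (1.20), Aldoa (1.08), Gys1 (0.52) and Phka1 (0.43) also rose. Several of these are not restricted to muscle: Aldoa was at 1622 ± 215 FPKM (SD, n = 3) in wild-type iWAT. Of the 53, 38 were highest in transgenic 2, and 26 were also lowest in wild-type 1.

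Markers of other contractile cells were also read. Of the 10 smooth muscle genes, 0 were called in either direction, against 18.6% of all tested loci. Mylk (log2 fold change -0.22) and Des (0.38), in opposite directions, had an unadjusted limma p under 0.05. The share of all tested loci at that unadjusted threshold was not counted. The 10 summed to 127, 216 and 261 FPKM in transgenic iWAT, against 257, 191 and 191 FPKM in wild-type iWAT. Heart muscle genes were near the floor, with 8 of 9 under 1 FPKM in all libraries and Myh6, the atrial heavy chain, at or near 0. Myl4, an atrial light chain also found outside the heart, was the exception and was 5.13 to 9.67 FPKM, with a log2 fold change of -0.26 (limma adjusted p = 0.313). Pax7 and Myf5, of muscle stem cells, were at 0 in all 6 libraries, 7 of 9 myogenic factors were under 1 FPKM throughout, and Myh3 and Myh8, the embryonic and perinatal heavy chains, were 0.0604 FPKM or less. Mef2c, a transcription factor of muscle and other tissues, was tested and not called, with an adjusted limma p of 0.261.

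Adipocyte markers were high in all libraries, and most brown fat genes were higher in transgenic iWAT, as Myl3 was. Fabp4, Adipoq and the other markers of white and brown adipocytes summed to 25428 to 33202 FPKM. Of these 6, 0 were called higher and 2 lower, Adipoq (log2 fold change -0.85) and Retn (-2.02). Over all 11692 tested loci, 11.6% were called higher and 822 loci lower. Of 8 brown adipocyte genes, 7 rose, against 11.6% of all tested loci, among them Ucp1, the uncoupling protein (log2 fold change 4.12, limma adjusted p = 0.00106), and Cidea of the lipid droplet (3.76, limma adjusted p = 0.000274). Dio2, the deiodinase that activates thyroid hormone, did not pass the test, with 1.69 ± 1.39 FPKM (SD, n = 3) in transgenic iWAT, 2.38 ± 1.36 FPKM (SD, n = 3) in wild-type iWAT and a log2 fold change of -0.37 (limma adjusted p = 0.576). Their summed level was 7934, 6388 and 6130 FPKM in transgenic 1, 2 and 3 and 1052, 613 and 704 FPKM in wild-type 1, 2 and 3, with no marker at 0. It was highest in transgenic 1, which also had the highest Myl3 and Tnnc1. Among the wild-type mice the sum was highest in wild-type 1. There, Myl3 was 0.844, 1.30 and 0.852 FPKM and Tnnc1 was 0.646, 0.861 and 0.971 FPKM in wild-type 1, 2 and 3. Myl1 was highest in transgenic 2 (118 FPKM). The part of these cells in the Myl3 and Myl1 values was not tested. Mammary epithelium genes, which can occur in the inguinal pad, summed to 150, 214 and 312 FPKM against 359, 323 and 252 FPKM. Of 8 tested, 1 was called lower (Lalba), against 822 of all 11692 tested loci. Lalba passed the filter on low values through the wild-type mean only (1.26 FPKM, against 0.319 FPKM in transgenic iWAT), which set its direction.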

How the data were processed

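Inguinal fat RNA of 3 Hlx transgenic and 3 wild-type mice was extracted with Trizol and sequenced from TruSeq v2 libraries, which do not keep strand, giving single-end reads, each of 100 bases. To make the table, the authors mapped them to mm10 and deposited FPKM per gene and mouse. The submitters' processing notes name TopHat2 2.0.9, Bowtie2 2.1.0, Cufflinks 2.2.1 and CASAVA 1.8.2. The annotation used is not given in the sources used here. Read counts were not used, so no count test was run, and the depth behind each value is unknown, which limits the precision of low FPKM.

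From the deposited FPKM, log2(FPKM + 1) was fitted by genotype alone with limma 3.58.1 (R 4.3.3; lmFit, then eBayes with its trend option; two-sided tests) over 11692 loci with a mean over 1 FPKM in at least 1 genotype. Benjamini-Hochberg adjustment covered all of these loci, and a gene was called at an adjusted p under 0.05. Fold changes on this scale understate the change of low genes. Single genes were also given an exact permutation test over 20 arrangements. Coordinates were taken from the table with starts counted from 1, and gene overlaps from GENCODE M21 annotation of the same build. Promoters came from RefSeq. Figures were drawn with matplotlib 3.10.9 in Python 3.11.15.

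On simulated data with 100 genes changed 2-fold and 100 changed 3-fold among 11692, the procedure recovered 80% and 95%. Of its calls, 5.41% were false. The changed genes were drawn from loci with a wild-type mean log2(FPKM + 1) over 2, with normal noise of each locus's own spread. The median standard error was 0.62 over the tested members, against 0.11 over all tested loci. The percentages therefore cannot be read as the recovery of the muscle genes.

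The members, gene lists and fibre groups were chosen with earlier results of these data known. By rule, values per mouse were given for the heavy and light chains, the troponins, Acta1, Ckm, Sln, Pvalb, Atp2a1 and each called member, and other members were given by range or by the libraries described. From each list outside the members, the called genes and up to 3 genes of highest mean could be named, and Fabp3 stands for the called muscle genes with a value per mouse. The exceptions were Mb and Mybpc1, given per mouse, and Myh6, Mylk, Pax7, Myf5, Myh3 and Myh8, named after their values were seen. Dio2 was a further exception, named though it was neither called nor among the 3 brown adipocyte genes of highest mean. Alternatives were leaving out each mouse in turn, blocking on replicate number, eBayes without trend, a pseudocount of 0.1, median-ratio scaling, quantile normalization, array quality weights, an unfiltered table, filtering on the mean over all mice, an adjusted p under 0.01, and summing the loci of a symbol.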

Additional observations from a re-analysis of the deposited data

How the results depend on the processing

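The precision of low FPKM cannot be stated because the depth is unknown, and 3 mice per genotype allow no exact permutation p under 0.1. Myl3 was called in 15 of 15 alternatives, with log2 fold changes from 1.31 to 2.09, and Myl1 in 11 of 15, from 0.63 to 1.02. Members called higher, 2 as reported, were 1 with no filter on low values, 1 at an adjusted p under 0.01, and 1 to 2 when each mouse was left out, with 1 without transgenic 1, wild-type 1 or wild-type 3. With the replicate number as a block they were 16, while the loci called higher among all those tested were 1230, against 1352 without the block. Over all tested loci, samples of the same number were not taken as paired (correlations of deviations of 0.0129, 0.0344 and 0.0701, and -0.19 to 0.135 for other pairs), and no sample correlated best with its own number. The summed muscle level itself ran in the same order of replicate numbers in both genotypes, with the transgenic mouse above the wild-type mouse of its number in 13 of 13 fast isoforms for each number. The block takes out that shared order, but the labels do not say that a number marks related mice. The median log2 fold change of the members was 1.86 with a pseudocount of 0.1. The sign turned in no called member but in 3 others when a mouse was left out. Under leave-one-out, the log2 fold change of Actn2 ran from -0.339 (without transgenic 2) to 0.00366 (without transgenic 1), that of Tpm2 from -0.0282 (without transgenic 2) to 0.962, and that of Ldb3 from -0.288 (without transgenic 2) to 0.923. Over all loci, 569 were higher and 199 lower at an adjusted p under 0.01, and leaving out each mouse gave 780 to 1295 higher and 329 to 906 lower. The adipocyte markers called lower were 1 with no filter, 1 at an adjusted p under 0.01, and 1 to 2 with a mouse left out. The mammary markers called lower were 0 with a pseudocount of 0.1, with a filter on the mean of all mice, with quantile normalization and at an adjusted p under 0.01, and 0 to 1 with a mouse left out. The smooth muscle markers called higher were 0 to 1 with a mouse left out, and the other skeletal muscle genes called higher were 5 at an adjusted p under 0.01. For these counts the cause was not tested.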

Other observations

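Loci outside the members were ranked by how closely their log2(FPKM + 1) followed the log2 of the summed muscle level across the 6 mice. The 10 closest were Eef1a2 (Pearson r = 0.992), S100a8 (0.987), Capn3 (0.974), Mybph (0.973), Adcy10 (0.973), S100a9 (0.970), Cox6a2 (0.966), Poglut1 (0.966), Wsb1 (0.966) and Lcn4 (0.962). Mybph and Cox6a2 are on the list of 56 further skeletal muscle genes. The 10 were picked from the tested loci as the closest, each r rests on 6 points of the same libraries, and no test was made. Eef1a2, a translation elongation factor, was 0.711, 7.20 and 1.41 FPKM in transgenic iWAT and 0.0215, 1.41 and 0.365 FPKM in wild-type iWAT. It was highest in transgenic 2 and lowest in wild-type 1, the order of the fast isoforms. S100a8 and S100a9, calcium-binding proteins abundant in neutrophils, reached 31.1 and 19.4 FPKM in transgenic 2 and were 3.99 and 2.59 FPKM in wild-type 1. Cox6a2, a subunit of cytochrome c oxidase, was 2.11, 21.1 and 3.62 FPKM against 0.709, 4.79 and 2.59 FPKM.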
